A study of Mus musculus with 12 samples.

Results

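The comparison of the higher with the lower dose of pyrroloquinoline quinone (PQQ) used 9 hippocampal RNA-seq libraries of aged mice, 4 from the PQQ-H group and 5 from the PQQ-L group, out of 12 libraries in the series. All mice were male C57BL/6J animals, labelled WT, aged 20 months and bought as naturally aged animals. PQQ was given by oral gavage in normal saline for 14 days, at 10 mg/kg/day in PQQ-H and at 5 mg/kg/day in PQQ-L, and 6 mice had been assigned to each group. Both groups received PQQ, so the comparison addresses what a doubling of the dose was accompanied by, and the 3 saline libraries were not used. All genes with a mean FPKM (fragments per kilobase of gene length, corrected for library depth) of at least 0.5 over the 9 libraries are described, which held for 13637 of the 27833 genes in the table. The values at this limit were 0.5002 for Osr1, just inside, and 0.4997 for Rtl4, just outside. The authors' reads per library were recovered from the FPKM and came to between 32395680 and 38179496 on genes, with a median of 35177124.

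PQQ is a redox-active quinone that serves as a cofactor of some bacterial enzymes. In animals it is studied as an antioxidant and for its effect on mitochondria, where PGC-1α (Ppargc1a) drives the making of new mitochondria and the deacetylase SIRT1 acts on PGC-1α. The hippocampus holds the pyramidal neurons of the CA fields and the granule neurons of the dentate gyrus. It borders on the lateral ventricle, whose choroid plexus and ciliated ependyma make and move cerebrospinal fluid, and on the meninges.

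Of the 4 PQQ-H libraries, PQQ-H 1 and PQQ-H 2 stood apart from the other 7, in the genes of another brain region. Drd2, the dopamine D2 receptor of striatal neurons, was at an FPKM of 85.1 in PQQ-H 1 and 31.0 in PQQ-H 2, and between 0.144 and 2.28 in the other libraries. Adora2a, the adenosine A2a receptor of the same neurons, was at 97.0 and 46.6 against 0.278 to 1.5. Chat, which makes acetylcholine, was at 4.85 and 3.37 against at most 0.0104 elsewhere. The opposite held for the dentate gyrus, where C1ql2, a synaptic organizer of granule neurons, was at 1.21 and 1.44 in these libraries and at 14.5 to 68.2 in the others, and Lct at 0.0369 and 0.0700 against 0.932 to 13.2. Prox1, the transcription factor of granule neurons, was at 3.12 and 2.26 against 4.41 to 13.2. Markers of the labelled tissue were thus present in PQQ-H 3, PQQ-H 4 and all PQQ-L libraries, and those of the dentate granule neurons were low in PQQ-H 1 and PQQ-H 2. Summed over the striatal list of 22 genes, the FPKM was 3548 and 1854 in PQQ-H 1 and PQQ-H 2, 154 and 292 in PQQ-H 3 and PQQ-H 4, and 133 to 313 in PQQ-L. The first principal component of the 1000 most variable genes carried 62.8% of the variance and placed PQQ-H 1 at 47.8 and PQQ-H 2 at 35.9, with the other libraries between -26.8 and 5.20. In bulk tissue, fewer cells of a type and less RNA per cell cannot be told apart. The median of each gene list below is therefore given with all 9 libraries and again without PQQ-H 1 and PQQ-H 2.

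**Figure D1:**
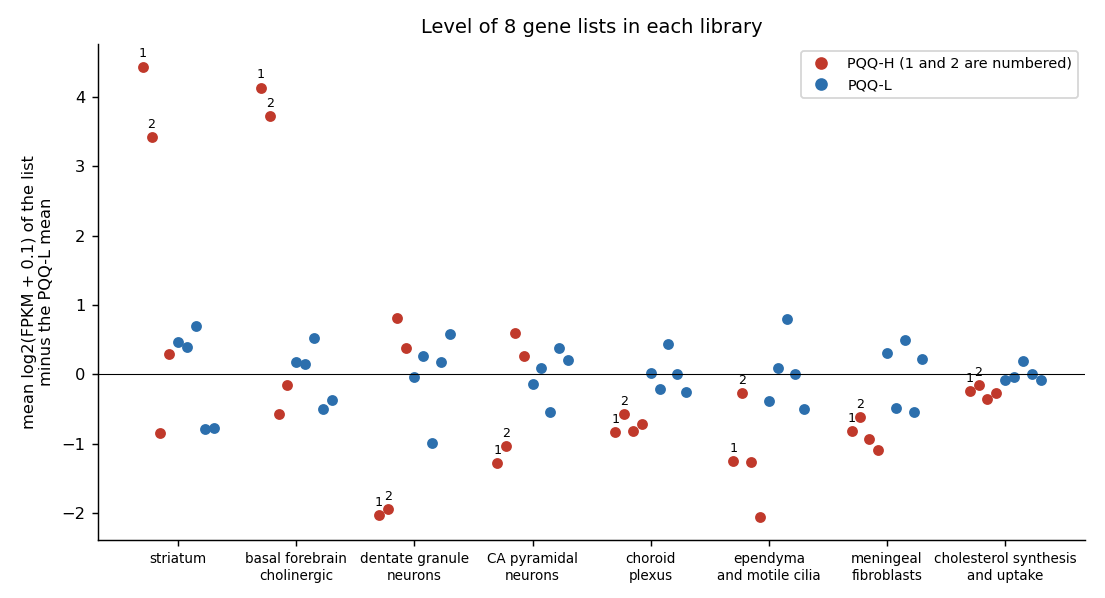
Level of 8 gene lists in each library, as the mean log2(FPKM + 0.1) over the genes tested minus the PQQ-L mean, with 1 point per library (red, PQQ-H; blue, PQQ-L). PQQ-H 1 and PQQ-H 2, which are numbered, lie 4.43 and 3.42 above the PQQ-L mean in the striatal list, whereas all 4 PQQ-H libraries lie below every PQQ-L library in the choroid plexus, meningeal and cholesterol lists.

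No gene differed between the doses at the thresholds used, a |log2FC| above 1 and an adjusted p below 0.05, so DEGs made up 0% of the 13637 genes tested. The smallest adjusted p in limma with Benjamini-Hochberg adjustment was 0.324 with all libraries and 0.143 without PQQ-H 1 and PQQ-H 2. At an unadjusted p below 0.05, the same limma test placed 682 genes (5%) higher and 1183 genes (8.67%) lower at the higher dose. The 95% interval of the log2FC had a median half-width of 0.28 and stayed within 1 in both directions for 88.4% of the genes, so that a 2-fold difference lay outside the interval for 12050 genes. Libraries of the groups did not overlap for 196 genes (1.44%) that were higher and 450 genes (3.3%) that were lower. Without PQQ-H 1 and PQQ-H 2, 540 genes (3.99% of 13542) were higher and 1164 (8.6%) were lower at an unadjusted p below 0.05, of which 208 and 434 had been so with all libraries.

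With PQQ-H 1 and PQQ-H 2 included, libraries spread more within PQQ-H. The median SD over genes was 0.21 in PQQ-H and 0.14 in PQQ-L on the log2 scale, and the SD was larger in PQQ-H for 73.8% of the genes. Correlation distances over the 1000 most variable genes were 0.109 between PQQ-H 1 and PQQ-H 2 and 0.0791 between PQQ-H 3 and PQQ-H 4. They were 0.341 to 0.601 from one of these pairs to the other, and 0.0755 to 0.168 within PQQ-L. A |log2FC| above 1 was seen for 98 genes in the upward and 91 genes in the downward direction. When PQQ-H 1 and PQQ-H 2 were left out, only 8 of the 98 still exceeded 1, against 49 of the 91 that remained below -1. No separation of the groups as a whole was found, as the mean correlation distance between groups exceeded that within groups by 0.0624 over the 1000 most variable genes (one-sided exact permutation p = 0.111), and by 0.0358 without PQQ-H 1 and PQQ-H 2 (p = 0.143 in the same exact test). Of the libraries left out in turn, only PQQ-H 3 moved this p below 0.05. The difference was 0.156 without it (one-sided exact permutation p = 0.0357), with PQQ-H 1 and PQQ-H 2 still included. It was 0.127 without PQQ-H 4 (p = 0.0893 in the same exact test), 0.0414 without PQQ-H 1 and 0.0577 without PQQ-H 2. The share of higher genes among those at an unadjusted p below 0.05 depended on the scaling, with 36.6% in the deposited FPKM, 53.7% after median-of-ratios scaling, 46.9% after quantile normalization and 10.8% in TPM.

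The direction of the differences moved with the length of the genes, a pattern that was examined after the values had been seen. The length of each gene model was worked out from its FPKM and its reads, and the genes were put into 10 bins of like size by length. For the bin of the shortest genes, with models of 105 to 1250 bases, the median log2FC was 0.17, with 266 genes higher and 31 lower at an unadjusted p below 0.05. For the bin of the longest genes, with models of 9322 to 98282 bases, the median was -0.17, with 9 genes higher and 307 lower. Genes that were higher had a median length of 1571 bases and those that were lower 6386, against 3612 over all genes. The medians of the shortest and longest bins were 0.10 and -0.09 without PQQ-H 1 and PQQ-H 2. They were 0.14 and -0.17 among the 5 libraries whose deposited library name opens with the letter L, which are PQQ-H 1 to 3 and PQQ-L 4 and 5 (the labels do not say what the letter means).

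Within each library, the longest bin minus the shortest bin was -0.19, -0.45, 0.07 and -0.13 in PQQ-H 1 to 4, and 0.20, 0.05, 0.20, 0.11 and 0.15 in PQQ-L 1 to 5. PQQ-H 3 lay among the PQQ-L libraries and the other 3 PQQ-H libraries lay below all of them. The means were -0.18 ± 0.22 (SD, n = 4) and 0.14 ± 0.07 (SD, n = 5), a difference of -0.32 (two-sided exact permutation p = 0.0159). The difference was -0.17 without PQQ-H 1 and PQQ-H 2, and the same exact permutation gave p = 0.0952. List medians relative to length, where given below, are medians after the median of its own length bin was subtracted from each member. In the bin next to the longest, 245 genes were lower at an unadjusted p below 0.05.

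**Figure D2:**
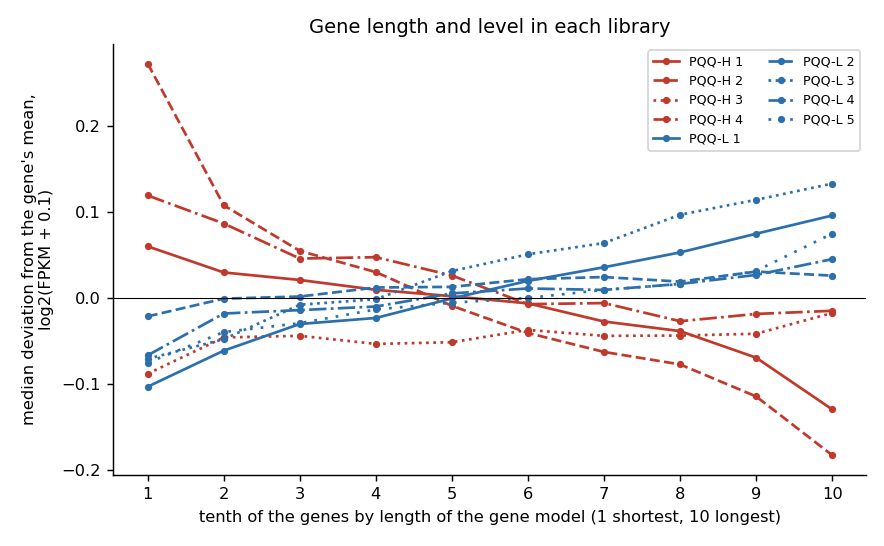
Median deviation from each gene's mean over the 9 libraries, in log2(FPKM + 0.1), for 10 groups of genes from the shortest to the longest gene models, with 1 line per library (red, PQQ-H; blue, PQQ-L). The lines of PQQ-H 1, 2 and 4 fall towards long genes, those of the PQQ-L libraries rise, and PQQ-H 3 changes by 0.07 from end to end.

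Genes of cholesterol synthesis and uptake were lower at the higher dose as a group. Cells in the adult brain make their own cholesterol, through a chain of enzymes that starts from acetyl-CoA, and the transcription factor SREBP2 (Srebf2) switches on these enzymes when sterols in the endoplasmic reticulum run low. All 19 genes of the list were lower, 9 of them at an unadjusted p below 0.05 (8.67% of all genes) and 6 without overlap between the groups (3.3% of all genes), with a median log2FC of -0.26 against -0.02 over all genes. Without PQQ-H 1 and PQQ-H 2, again 19 of 19 were lower, with 11 at an unadjusted p below 0.05 (8.6% of all genes) and a median of -0.31. Relative to genes of their own length the median was -0.24 and 17 of 19 genes were lower. Within the libraries whose name opens with L, 17 of 19 were lower with a median of -0.15. Leaving out each library in turn moved the median between -0.31 and -0.20, and it was -0.23 after median-of-ratios scaling, -0.23 after quantile normalization and -0.35 in TPM. In the mean level of this list every PQQ-H library lay below every PQQ-L library, and PQQ-L 3 was the highest. Both also held for the choroid plexus and meningeal lists described below. The dose and the share of these neighbouring tissues cannot be told apart for the cholesterol list either.

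Sqle encodes squalene epoxidase, which takes the first step from squalene towards the sterols. Its FPKM was 14.6, 14.8, 17.5 and 16.9 in PQQ-H 1 to 4 and 19.2, 21.9, 26.2, 21.2 and 20.7 in PQQ-L 1 to 5. The log2FC was -0.45 ± 0.10 (SE) with an exact permutation p of 0.00794 (two-sided), the smallest that 4 against 5 libraries allow. Libraries without overlap give this exact p or one near it, so it restates the lack of overlap. It is not adjusted for the number of genes or for their choice by a small p. The adjusted p of Sqle in limma was 0.324, and between 0.110 and 0.748 over the alternatives, a range that also holds for Ttr. Sc5d, the sterol C5 desaturase of the last steps, was at 10.6, 12.1, 11.8 and 12.5 against 12.9, 15.3, 15.7, 13.9 and 15.0, with a log2FC of -0.31 ± 0.08 (SE). Neither gene had overlapping libraries, and Sc5d also had an adjusted p of 0.324 in limma. Their log2FC were -0.34 and -0.26 without PQQ-H 1 and PQQ-H 2.

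Further members at an unadjusted p below 0.05 were named after their values had been seen. Cyp51, the lanosterol demethylase, had a log2FC of -0.33 ± 0.09 (SE), and Idi1, the isopentenyl diphosphate isomerase, one of -0.42 ± 0.12. Insig1, which holds SREBP2 back in the endoplasmic reticulum and is itself one of its targets, had a log2FC of -0.26 ± 0.09, Dhcr7 one of -0.17 ± 0.07 and Mvd one of -0.27 ± 0.12. The libraries of Insig1 and Dhcr7 did not overlap, whereas those of Cyp51, Idi1 and Mvd did. Hmgcs1, which makes HMG-CoA, had a log2FC of -0.42 ± 0.19 and did not reach that level. Srebf2 itself was at 34.8 to 41.0 in PQQ-H and 36.5 to 43.2 in PQQ-L, with a log2FC of -0.08 ± 0.07 that lay within the spread between libraries.

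Promoter sequence from RefSeq (GRCm38.p6) was at hand for 12 of the 19 genes and is shown for 5 of them, because it shows where CCAAT, the motif found in every member with a sequence, lies. SREBP factors bind sterol regulatory elements such as TCACNCCAC, and their activity at these promoters is known to depend on the factor NF-Y, which binds CCAAT. Each sequence is 100 bases long, lies before the annotated start and runs from 5′ to 3′ on the strand of the gene. The distance to the start differs. The sequences cover bases 100 to 1 before the start in Sc5d, Cyp51 and Idi1, 250 to 151 in Insig1 and 189 to 90 in Hmgcs1. Capitals mark CCAAT, its reverse complement ATTGG and, in Hmgcs1, TCACCCCAC.
Sc5d, chr9:42264301-42264400, minus strand: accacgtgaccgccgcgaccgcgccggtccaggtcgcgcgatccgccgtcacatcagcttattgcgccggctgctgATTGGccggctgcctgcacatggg
Cyp51, chr5:4104698-4104797, minus strand: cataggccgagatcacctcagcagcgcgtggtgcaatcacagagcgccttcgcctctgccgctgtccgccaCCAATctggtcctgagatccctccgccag
Idi1, chr13:8885506-8885605, plus strand: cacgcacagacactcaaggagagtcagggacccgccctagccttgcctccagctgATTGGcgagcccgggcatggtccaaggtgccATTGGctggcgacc
Insig1, chr5:28071162-28071261, plus strand: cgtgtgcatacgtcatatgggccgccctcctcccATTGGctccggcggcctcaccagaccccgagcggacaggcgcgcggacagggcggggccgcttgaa
Hmgcs1, chr13:119690162-119690261, plus strand: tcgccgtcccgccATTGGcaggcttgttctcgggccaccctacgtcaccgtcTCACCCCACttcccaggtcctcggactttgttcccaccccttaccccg

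Within 250 bases before the start and on both strands, CCAAT was present in 12 of the 12 genes with a sequence, against 37.5% of the 27025 genes in the promoter table. TCACNCCAC was present in 1 of the 12, Hmgcs1, against 1.22% of all genes. The motifs do not overlap each other in these windows. These counts describe letters in the sequence, and binding of a factor was not measured.

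**Figure D3:**
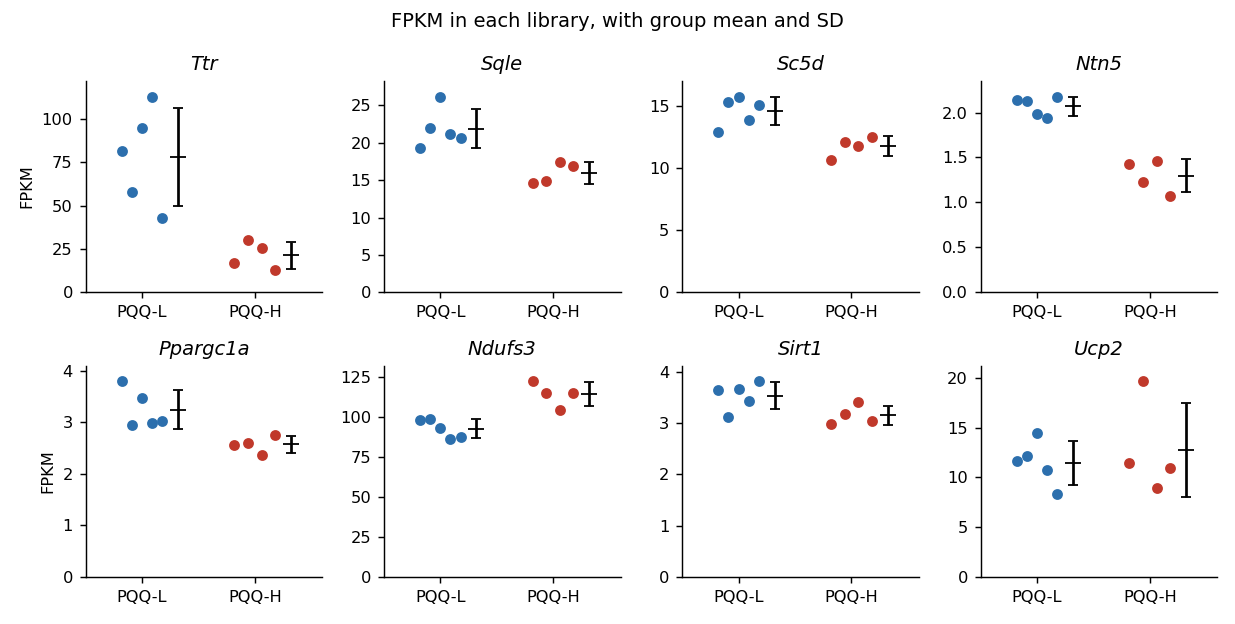
FPKM of 8 genes in each library (blue, PQQ-L; red, PQQ-H), with the mean and SD of each group in black and axes that start at 0. The PQQ-H points of Ttr, Sqle, Sc5d, Ntn5 and Ppargc1a all lie below the PQQ-L points, those of Ndufs3 all lie above, and those of Sirt1 and Ucp2 overlap.

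Transcripts of the choroid plexus, the ependyma and the meninges were lower at the higher dose, with all libraries and also without PQQ-H 1 and PQQ-H 2. Ttr encodes transthyretin, the carrier of thyroid hormone and retinol that the choroid plexus secretes. Its FPKM was 17.1, 30.0, 25.3 and 12.8 in PQQ-H 1 to 4, and 81.9, 58.1, 95.1, 113 and 42.6 in PQQ-L 1 to 5, without overlap. The log2FC was -1.86 ± 0.32 (SE), a 3.64-fold lower level, with an exact permutation p of 0.00794 and an adjusted p of 0.324 in limma. The exact p restates the lack of overlap, by which Ttr was also named, and is no further support. The difference was -2.03 without PQQ-H 1 and PQQ-H 2 and -1.56 within the libraries whose name opens with L.

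Of the 32 genes of the choroid plexus list, 16 passed the filter, 15 of these were lower and 4 were lower at an unadjusted p below 0.05 (8.67% of all genes), with a median log2FC of -0.61, or -0.62 relative to genes of their length. The median was -0.74 without PQQ-H 1 and PQQ-H 2, where 12 of 16 were lower and 6 at an unadjusted p below 0.05 (8.6% of all genes). The 2 members beside Ttr with the smallest p were Lbp, which binds lipopolysaccharide, and Calml4, a calmodulin-like protein. Lbp was at 0.248, 0.807, 0.472 and 0.347 in PQQ-H and at 0.958, 1.12, 1.39, 1.41 and 0.986 in PQQ-L, with a log2FC of -1.24 ± 0.27 (SE). The PQQ-H mean of Lbp was 0.469, below the filter of 0.5, so that Lbp was tested through its level in PQQ-L alone and its place among the tested genes is no support for a difference. Calml4 had a log2FC of -1.25 ± 0.29 and overlapped between the groups. The defining markers Kcne2 and Folr1 were low in both groups, at no more than 0.379 for Kcne2 and at 0 to 0.176 in PQQ-H and 0.197 to 1.55 in PQQ-L for Folr1. Summed over the 32 genes, the FPKM was 98.3 to 114 in PQQ-H and 125.9 to 226 in PQQ-L.

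All 9 tested genes of the ependymal list were lower, 6 of them at an unadjusted p below 0.05 (8.67% of all genes), with a median log2FC of -1.11, or -1.07 relative to length. The median was -1.40 without PQQ-H 1 and PQQ-H 2, with 8 of 9 lower and 7 at an unadjusted p below 0.05 (8.6% of all genes). Tekt1, a filament protein of ciliary microtubules, was at 0.640, 0.994, 0.311 and 0.32 in PQQ-H and at 1.10, 1.07, 2.28, 1.75 and 1.12 in PQQ-L, with a log2FC of -1.29 ± 0.34 (SE). Ccdc153 was between 0 and 3.07 in PQQ-H and between 1.36 and 8.82 in PQQ-L, with a log2FC of -2.86 ± 0.92. Foxj1, the transcription factor of motile cilia, overlapped between the groups with a log2FC of -0.67 ± 0.25.

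The meningeal list showed 12 of 12 tested genes lower, 10 of them at an unadjusted p below 0.05 (8.67% of all genes), with a median log2FC of -0.95, or -0.98 relative to length. The median was -0.92 without PQQ-H 1 and PQQ-H 2, where 12 of 12 were lower and 7 at an unadjusted p below 0.05 (8.6% of all genes). Ogn and Lum, small proteoglycans of the collagen matrix, had a log2FC of -0.95 ± 0.25 each. Dcn, a further one, was at 3.03 to 4.06 in PQQ-H and spread from 2.63 to 22.9 in PQQ-L. No gene of this list had groups without overlap. Members that passed the filter through PQQ-L alone, with a PQQ-H mean below 0.5, were 2 of the 16 tested in the choroid plexus list, 1 of 9 in the ependymal list and 2 of 12, Lum among them, in the meningeal list. The counts given for these lists include such members, whose direction is no support for a difference. Over all genes tested there were 147 of this kind, and 156 that passed through PQQ-H alone. The dose and the share of these neighbouring tissues in each sample cannot be told apart here. With the mean level of the choroid plexus list in each library as a covariate, the genes at an unadjusted p below 0.05 were 350 higher and 206 lower.

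Genes of oxidative phosphorylation were slightly higher at the higher dose, by about as much as other genes of their length. All 77 tested nuclear genes of the respiratory chain and ATP synthase had a log2FC above 0, 13 of them at an unadjusted p below 0.05 (5% of all genes), with a median of 0.14. Relative to genes of their own length the median was 0.02, with 49 genes above and 28 below. The common direction depended on the scaling, with 77 genes higher after median-of-ratios scaling, 61 in TPM and 62 after quantile normalization. Without PQQ-H 1 and PQQ-H 2, 75 of 77 were higher and 5 at an unadjusted p below 0.05 (3.99% of all genes), with a median of 0.11. Ndufs3, a core subunit of complex I, was at 122, 115, 104 and 115 in PQQ-H and at 98.1, 98.7, 92.7, 86.1 and 87.4 in PQQ-L, without overlap and with a log2FC of 0.30 ± 0.07 (SE). Cox8a, a subunit of complex IV, was at 693, 779, 726 and 742 against 600, 657, 562, 646 and 593, with a log2FC of 0.27 ± 0.07. Both had an adjusted p of 0.324 in limma, and their log2FC were 0.24 and 0.27 without PQQ-H 1 and PQQ-H 2.

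The 13 protein-coding genes of the mitochondrial genome were also all above 0, with 3 at an unadjusted p below 0.05 (5% of all genes) and a median log2FC of 0.20, which was 0.04 relative to genes of their length. Their median was 0.09 without PQQ-H 1 and PQQ-H 2, with 11 of 13 higher and 0 at an unadjusted p below 0.05. Of the 13, 12 were higher in TPM, 9 after quantile normalization and 13 after median-of-ratios scaling. ND4L had a log2FC of 0.50 ± 0.17 (SE) and ATP6 one of 0.43 ± 0.17, each with overlapping libraries. Both genes share bases with a neighbouring gene, so their counts are uncertain. Proteins of the mitochondrial ribosome were higher for 70 of 78 genes, 20 of them at an unadjusted p below 0.05 (5% of all genes), with a median log2FC of 0.10, which was 0.03 relative to genes of their length and 0.11 without PQQ-H 1 and PQQ-H 2. In TPM only 42 of the 78 were higher, with a median of 0.01, against 75 after median-of-ratios scaling and 72 after quantile normalization. Mrps33 was at 32.7 to 36.1 in PQQ-H and 25.9 to 31.1 in PQQ-L, with a log2FC of 0.30 ± 0.07, and Mrpl55 had one of 0.26 ± 0.07. The libraries of neither gene overlapped.

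Ppargc1a, the coactivator of mitochondrial biogenesis, was lower at the higher dose. Its FPKM was 2.56, 2.60, 2.36 and 2.76 in PQQ-H 1 to 4, and 3.79, 2.95, 3.48, 2.99 and 3.02 in PQQ-L 1 to 5, without overlap. The log2FC was -0.32 ± 0.10 (SE) with an exact permutation p of 0.00794 and an adjusted p of 0.324 in limma, and -0.33 without PQQ-H 1 and PQQ-H 2. Here too the exact p restates the lack of overlap. The gene model of Ppargc1a belongs to the bin of the longest genes, and relative to that bin its log2FC was -0.15. Sirt1 was at 2.99, 3.17, 3.41 and 3.04 in PQQ-H and at 3.65, 3.11, 3.67, 3.44 and 3.81 in PQQ-L, with a log2FC of -0.16 ± 0.08 and overlapping libraries (exact permutation p = 0.0635), and of -0.13 without PQQ-H 1 and PQQ-H 2. Polg, the mitochondrial DNA polymerase, lay within a narrow range, at 5.02 to 5.55 against 4.77 to 4.91, without overlap and with a log2FC of 0.10 ± 0.06. The list of biogenesis genes and sirtuins had 11 of 19 members higher and a median log2FC of 0.07, which was 0.06 relative to length, 0.03 without PQQ-H 1 and PQQ-H 2 and -0.01 in TPM.

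Ucp2 encodes an uncoupling protein of the inner mitochondrial membrane. Its FPKM was 11.5, 19.7, 8.96 and 10.9 in PQQ-H 1 to 4, and 11.7, 12.1, 14.4, 10.8 and 8.37 in PQQ-L 1 to 5. PQQ-H 2 was the highest of all and the other libraries of both groups covered the same range. The log2FC was 0.11 with a 95% interval from -0.39 to 0.61 (adjusted p = 0.834 in limma, exact permutation p = 0.667), and its direction turned to -0.19 without PQQ-H 1 and PQQ-H 2. The 5 uncoupling proteins and ADP/ATP carriers together had a median log2FC of 0.11 (0.10 relative to length, 0.03 without PQQ-H 1 and PQQ-H 2), and none reached an unadjusted p below 0.05.

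In the other lists of mitochondrial upkeep and defence against oxidants, few genes stood out. Mitochondrial fusion, fission and cristae had 13 of 20 genes higher with a median log2FC of 0.05 (0.04 relative to length, 0.03 without PQQ-H 1 and PQQ-H 2, -0.02 without PQQ-H 4 and -0.03 in TPM). Of these, Mtx1, a metaxin of the outer membrane, was at an unadjusted p below 0.05 and without overlap, at 19.4 to 22.2 in PQQ-H and 15.5 to 18.9 in PQQ-L (log2FC 0.28 ± 0.08, SE). Mitophagy and autophagy had 8 of 14 genes higher with a median of 0.08 (0.05 relative to length, 0.02 without PQQ-H 1 and PQQ-H 2, -0.01 in TPM). The genes lower at an unadjusted p below 0.05 (8.67% of all genes) were 2, Ulk1, the kinase that starts autophagy (log2FC -0.24 ± 0.07, without overlap), and Optn, a receptor of mitophagy (-0.39 ± 0.14). Targets of NRF2 included Hmox1, the heme oxygenase, with a log2FC of 0.34 ± 0.12 and Slc7a11, the cystine transporter, with -0.51 ± 0.18, and their median of 0.06, with 12 of 16 higher (0.09 relative to length), turned to -0.03 in TPM and, with 5 of 16 higher, without PQQ-H 1 and PQQ-H 2. Among enzymes that remove peroxide and superoxide, 13 of 15 were higher with a median of 0.19, which was 0.04 relative to genes of their length. With PQQ-H 1 and PQQ-H 2 left out, 9 were higher and 6 lower with a median of 0.05. Txn2, the mitochondrial thioredoxin, was at an unadjusted p below 0.05 with 0.19 ± 0.08, the one member of 15 (5% of all genes). Gpx1 was at 104 and 114 in PQQ-H 1 and PQQ-H 2 and at 35.3 to 61.7 in the other libraries.

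The genes with the smallest p among those without overlap came from several functions. In the upward direction they were A430027H14Rik, Aimp1, Zfp511, Krtcap2, 1700023D09Rik, Lpar6, Snrpf, Tmem205, 1110038F14Rik and Banf1, with log2FC between 0.30 and 1.03. A430027H14Rik was at 2.97, 2.40, 1.81 and 2.20 in PQQ-H and at 1.22, 1.40, 0.841, 0.988 and 1.02 in PQQ-L, with 26 to 90 reads per library. Aimp1, a scaffold of the tRNA synthetase complex, was at 49.3, 46.4, 43.4 and 45.5 against 37.1, 39.4, 34.9, 34.1 and 34.1, with a log2FC of 0.36 ± 0.07 (SE). Snrpf, a core protein of the spliceosome, had a log2FC of 0.38 ± 0.08, Banf1, which binds chromatin at the nuclear envelope, one of 0.30 ± 0.06, and Lpar6, a receptor of lysophosphatidic acid, one of 0.59 ± 0.12. Several of these genes are short. Relative to the median of its length bin, the log2FC was 0.28 for Aimp1, 0.21 for Snrpf, 0.14 for Krtcap2 and 0.13 for Banf1. It was 0.86 for A430027H14Rik and 0.56 for Lpar6.

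In the downward direction they included Ntn5, Ttr, Slbp, Kmt2a, Iffo2, Tulp4, B230216N24Rik, Zmiz1 and Drc7, with log2FC between -1.91 and -0.28. Ntn5, a netrin-like protein, was at 1.43, 1.23, 1.46 and 1.07 in PQQ-H and at 2.14, 2.13, 1.98, 1.94 and 2.17 in PQQ-L, with a log2FC of -0.64 ± 0.11 (SE). Kmt2a, a histone H3 lysine methyltransferase, was at 3.86, 4.11, 4.39 and 4.42 against 5.43, 5.13, 5.67, 5.44 and 5.62, with a log2FC of -0.37 ± 0.07. Drc7, a protein of the ciliary dynein regulatory complex, was at 0.209, 0.310, 0.285 and 0.0489 against 0.995, 0.789, 2.07, 0.989 and 0.588, with only 5 to 221 reads per library. Its means were 0.213 and 1.09, so that it passed the filter of 0.5 through PQQ-L alone and could be named in this direction only. Slbp, which binds the stem-loop of histone mRNA, had a log2FC of -0.41 ± 0.08, and Zmiz1, a coactivator, one of -0.28 ± 0.06. Kmt2a, Tulp4 and Zmiz1 belong to the bin of the longest genes. Relative to that bin their log2FC were -0.20, -0.20 and -0.11. Relative to their own bins the log2FC of Ntn5 was -0.67 and that of Slbp -0.45. All genes named here for both directions had an adjusted p of 0.324 in limma and kept their sign without PQQ-H 1 and PQQ-H 2.

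Cytosolic ribosomal proteins were higher at the higher dose, most of all in PQQ-H 2. All 78 tested genes were above 0, 40 of them at an unadjusted p below 0.05 (5% of all genes), with a median log2FC of 0.34, or 0.20 relative to genes of their length. Without PQQ-H 1 and PQQ-H 2, 76 were higher, 3 at an unadjusted p below 0.05 (3.99% of all genes), with a median of 0.09, or 0.01 relative to length. The median was 0.19 without PQQ-H 2 and 0.34 without PQQ-H 1. The mean level of the list minus the PQQ-L mean was 0.32, 0.81, -0.03 and 0.24 in PQQ-H 1 to 4, and between -0.04 and 0.12 in PQQ-L. Rps27a was at 285, 296, 243 and 290 in PQQ-H and 214, 254, 220, 184 and 187 in PQQ-L, with PQQ-H 3 the lowest of its group and below PQQ-L 2.

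Genes of microglia, the resident macrophages of the brain, were also highest in PQQ-H 2. Of 18 tested genes 17 were higher, 7 at an unadjusted p below 0.05 (5% of all genes), with a median log2FC of 0.23, or 0.21 relative to length. The median was 0.15 without PQQ-H 2, 0.25 without PQQ-H 1 and 0.08 without both, with 0 genes higher at an unadjusted p below 0.05 (3.99% of all genes). C1qa, a subunit of complement C1q, was at 72.9 and 103 in PQQ-H 1 and PQQ-H 2, at 55.8 and 60.4 in PQQ-H 3 and PQQ-H 4, and at 44.2 to 59.4 in PQQ-L. Tyrobp, an adaptor of microglial receptors, had a log2FC of 0.52 ± 0.19 (SE) with all libraries and of 0.23 without the 2. Cx3cr1, the fractalkine receptor, had 0.25 ± 0.10 and 0.10.

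Several lists of neurons and synapses had most members lower with all libraries, those of synaptic proteins and glutamate receptors among them. GABA-A receptor subunits were lower for 10 of 12 genes with a median log2FC of -0.26, and of -0.01 without PQQ-H 1 and PQQ-H 2 (6 of 12 lower). GABA interneuron genes were lower for 12 of 16 with a median of -0.21, and of -0.25 without PQQ-H 1 and PQQ-H 2 (14 of 16 lower). Synaptic vesicle and scaffold proteins were lower for 18 of 20 genes, 6 of them at an unadjusted p below 0.05 (8.67% of all genes), with a median log2FC of -0.24, which was -0.20 relative to genes of their length. When PQQ-H 1 and PQQ-H 2 were left out, 15 of 20 were lower, 3 at an unadjusted p below 0.05 (8.6% of all genes), with a median of -0.13. Syngr1, a protein of synaptic vesicles, was at 90.2 to 103 in PQQ-H and 105 to 129 in PQQ-L, without overlap and with a log2FC of -0.29 ± 0.07 (SE). Bsn and Pclo, the scaffold proteins bassoon and piccolo of the active zone, had a log2FC of -0.44 ± 0.13 and -0.39 ± 0.12. Among AMPA and NMDA receptor subunits, 9 of 10 were lower, 2 at an unadjusted p below 0.05 (8.67% of all genes), with a median of -0.33 (-0.22 relative to length). The median was -0.19 without PQQ-H 1, -0.17 without PQQ-H 2 and -0.01 without both, where 5 of 10 were lower. Grin3a, an NMDA receptor subunit, was the one without overlap, at 1.68 to 2.71 against 2.96 to 6.40 (log2FC -0.78 ± 0.22). Genes of neurons in general had no common direction, with 7 of 20 higher and a median of -0.13, which was 0.02 with 12 of 20 higher without PQQ-H 1 and PQQ-H 2.

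The lists of hippocampal and striatal neurons changed sign with the libraries used. The striatal list had a median log2FC of 1.85 with all libraries and -0.24 without PQQ-H 1 and PQQ-H 2 (22 and 19 genes tested). The cholinergic list had 1.86 and -0.56 (8 and 2 genes tested), the dentate granule list -0.46 and 0.54, and the CA pyramidal list -0.40 and 0.32. Of the tested genes, 6 of 8 cholinergic and 3 of 22 striatal ones had a PQQ-L mean below 0.5. These passed the filter through PQQ-H alone, so that their higher level is no support for a difference. The oligodendrocyte list went from 0.21 to -0.25. The neocortical list stayed negative at -0.31 and -0.68, and was at -0.15 without PQQ-H 4 and -0.56 without PQQ-L 2. Its Scnn1a, a sodium channel subunit of layer 4 neurons, was at 0.537, 0.595, 0.995 and 0.772 in PQQ-H and at 1.88, 1.09, 1.37, 1.15 and 1.77 in PQQ-L (log2FC -0.91 ± 0.22, SE). Immediate early genes, which neurons switch on after activity, were lower for 15 of 18 genes, 3 at an unadjusted p below 0.05 (8.67% of all genes), with a median of -0.27 (-0.26 relative to length). It was -0.23 without PQQ-H 1 and PQQ-H 2, -0.14 without PQQ-H 3 and -0.15 without PQQ-L 4. Fos was at 4.01, 2.24, 1.16 and 3.47 in PQQ-H and at 7.09, 3.24, 5.26, 7.72 and 4.47 in PQQ-L, with overlapping libraries and a log2FC of -1.08 ± 0.36. Astrocytes had 11 of 16 genes lower, 3 at an unadjusted p below 0.05 (8.67% of all genes), with a median of -0.15 (-0.12 relative to length, and -0.16 with 14 of 16 lower without PQQ-H 1 and PQQ-H 2). Gja1, the astrocytic connexin 43, was without overlap at 50.2 to 68.0 against 68.1 to 85.3.

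Interferon-response genes were lower for 18 of 24 tested members, 5 of them at an unadjusted p below 0.05 (8.67% of all genes), with a median log2FC of -0.18, which was also the median relative to length, and of -0.09 without PQQ-H 3. Without PQQ-H 1 and PQQ-H 2, 23 of 24 were lower and 14 at an unadjusted p below 0.05 (8.6% of all genes), with a median of -0.45. The mean level of the list minus the PQQ-L mean was 0.01, 0.20, -0.54 and -0.31 in PQQ-H 1 to 4, and between -0.05 and 0.11 in PQQ-L. The lower level thus lay in PQQ-H 3 and PQQ-H 4, and PQQ-H 2 was the highest library. Oasl2, an interferon-induced gene of antiviral defence, was at 1.09, 1.33, 0.914 and 0.783 in PQQ-H and at 1.85, 1.6, 1.68, 1.34 and 1.40 in PQQ-L, without overlap and with a log2FC of -0.58 ± 0.16 (SE). Ifit1 had a log2FC of -0.55 ± 0.20, Lgals3bp one of -0.46 ± 0.17 and Rtp4 one of -0.55 ± 0.22. Irf7, the transcription factor that amplifies the interferon response, was at 1.19, 1.47, 0.602 and 0.862 in PQQ-H and 1.20 to 1.75 in PQQ-L, so that the difference lay in PQQ-H 3 and PQQ-H 4.

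The genes that the study placed downstream of SIRT1 were chosen on these samples, so that their direction is no independent evidence. The list used here holds 17 mouse genes, since the study's members under human HLA symbols were left out and Tgtp1 and Tgtp2, a single entry there, were kept apart. Of the 17, 12 were tested and 10 of these were lower, 2 of them at an unadjusted p below 0.05 (8.67% of all genes), with a median log2FC of -0.27 (-0.40 relative to length, -0.63 over 9 genes without PQQ-H 1 and PQQ-H 2). It was -0.02 without PQQ-H 3, -0.42 without PQQ-H 2 and -0.44 without PQQ-L 4. Cd74, the invariant chain of MHC class II, was at 1.0, 4.67, 0.622 and 1.43 in PQQ-H and at 1.67, 1.41, 2.19, 1.19 and 1.93 in PQQ-L, with a log2FC of -0.16 and a 95% interval from -1.21 to 0.89 (-0.73 without PQQ-H 1 and PQQ-H 2). Sfrp5, a secreted antagonist of Wnt, was at 0.778, 0.861, 0.105 and 0.200 against 0.746, 0.427, 1.18, 0.194 and 0.231, with a log2FC of -0.23 and an interval from -1.56 to 1.09, and its PQQ-H mean of 0.486 was below the filter. Both genes covered overlapping ranges, and their intervals include a 2-fold difference in at least one direction.

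**Figure D4:**
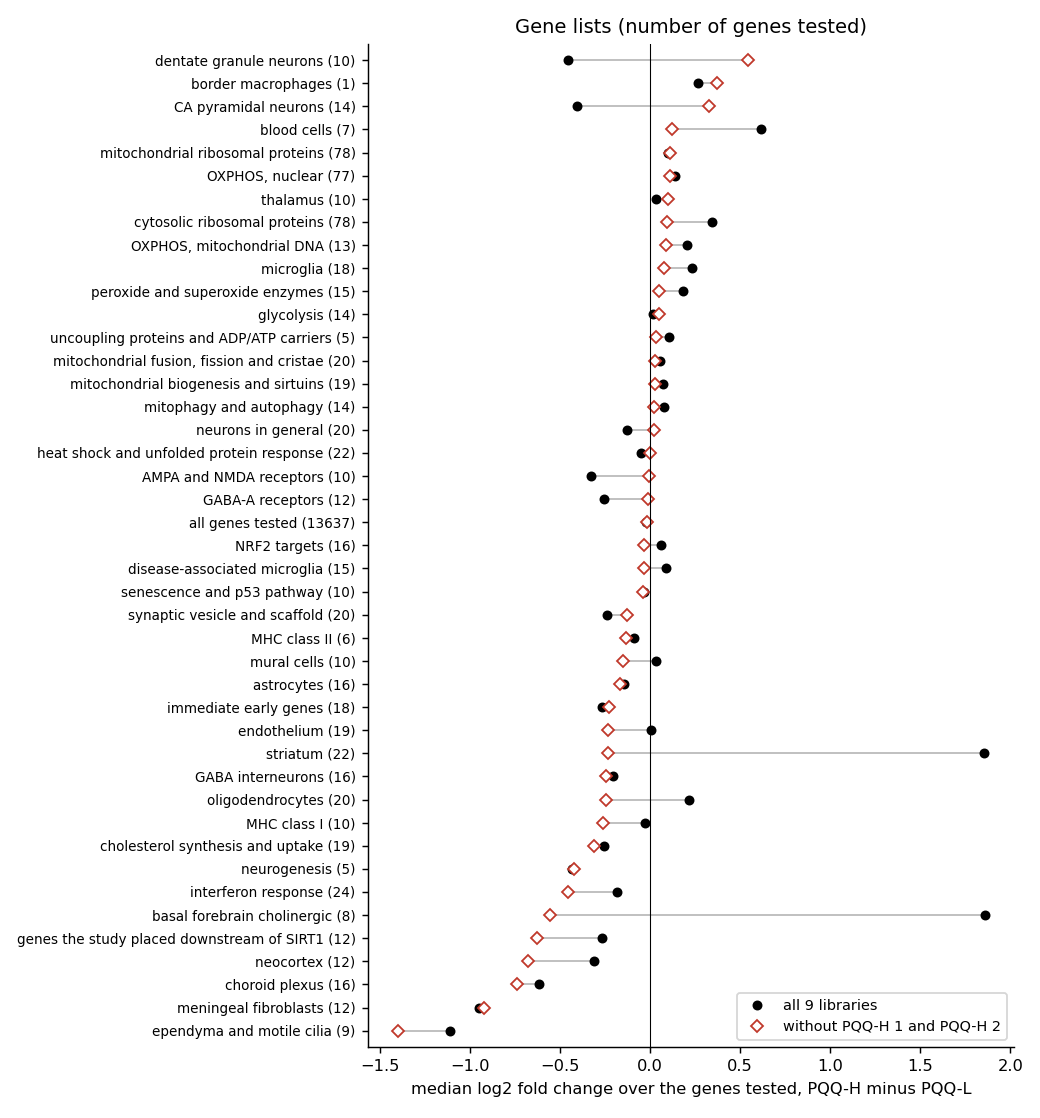
Median log2FC of PQQ-H minus PQQ-L over the tested genes of each list and over all genes, with the number of genes in parentheses, for all 9 libraries (black circles) and without PQQ-H 1 and PQQ-H 2 (open diamonds). The ependymal, meningeal, choroid plexus and cholesterol lists lie below 0 in both cases, whereas the striatal list moves from 1.85 to -0.24 and the dentate granule list from -0.46 to 0.54.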

How the data were processed

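Hippocampal RNA was extracted by the authors with TRIzol and sequenced on the Illumina NovaSeq platform, and reads were filtered with fastp, mapped with HISAT2 and counted with HTSeq-count. The authors deposited FPKM per gene, and the submitters' processing notes name mm39. Annotation, strandedness and program versions are not given in the sources used here, so overlapping or antisense genes cannot be told apart. For all 25563 genes above 0 in at least 2 of 12 libraries, whole reads were recovered (tolerance 0.02 reads). DESeq2, used by the authors, was not repeated.

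The limma test (3.58.1, R 4.3.3, with trend) was run on log2(FPKM + 0.1), which understates changes of low genes, for a mean FPKM of at least 0.5. Single values were compared with exact permutation tests, and the median was taken for each of 42 gene lists. Named are up to 10 genes per direction without overlap and with the smallest p, up to 4 per list by p, the first 3 of a cell type list, and Ucp2, Sirt1, Cd74 and Sfrp5. Some genes that these rules name are not reported here. Members, lists and rules were chosen with earlier results of these data known. The limma step and the recovery were tested on simulated data. Nothing in the labels ties a library to 1 animal, so p-values measure the spread between libraries, which may be technical. No pair of libraries within a group was a duplicate, since their counts differed beyond sampling noise (chi-square of 18.76 per degree of freedom or more). Alternatives were other pseudocounts (1, 0.01), filters, scalings, tests, covariates and each library left out, and, chosen after seeing the data, PQQ-H 1 and PQQ-H 2 left out and libraries whose name opens with L only. Python 3.11.15 with numpy 2.4.6, pandas 2.3.3, scipy 1.17.1 and matplotlib 3.10.9 was used for the rest.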

Additional observations from a re-analysis of the deposited data

Results flagged for a closer look

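For the 88 genes with values here, a single library lay far from the others of its group on the log2 scale in 7 of the 176 groups tested. Chance alone gives such a library in about 1 in 20 groups. Chat was at 0 in PQQ-L 2 and at 0.00989 to 0.0104 in the other PQQ-L libraries, which is 1 read each. Kcne2 was at 0 in PQQ-H 4 and at 0.0160 to 0.0174 in the other PQQ-H libraries, and at 0.379 in PQQ-L 3 against at most 0.0482 in the other PQQ-L libraries. Lum was at 0.658 in PQQ-L 4 (1.02 to 1.12 in the others), and Mvd at 7.15 in PQQ-L 1 (8.97 to 9.83). ND4L was at 15.4 in PQQ-L 2 (23.7 to 25.6), and Fosl2, a member of the immediate early genes, at 8.73 in PQQ-L 5 (5.28 to 5.87).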

How the results depend on the processing

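All 26 alternatives gave 0 DEGs, with a smallest adjusted p between 0.0798 and 0.748. The genes at an unadjusted p below 0.05 were 1865 in all. They were 1141 (672 lower) with the opening letter of each library's name as covariate, 556 (350 higher, 206 lower) with the choroid plexus score and 450 (158 higher, 292 lower) within the libraries whose name opens with L. TPM gave 273 higher and 2253 lower, and array quality weights 1112 higher. With the replicate block they were 1090 (402 higher, 688 lower). The numbers gave no pairing, since PQQ-H and PQQ-L libraries of the same number had correlations of deviations of 0.25, -0.19, -0.47 and 0.35. No PQQ-H library correlated best with its own number.

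Leaving out 1 library gave 1261 to 3346 genes at an unadjusted p below 0.05, with 427 to 1561 higher and 754 to 1785 lower. The highest values were all without PQQ-H 3, the lowest count of higher genes was without PQQ-L 5 and the lowest of lower genes without PQQ-L 3. The separation was 0.0241 to 0.156, and passed the threshold without PQQ-H 3 alone (0.156). The cause was not tested.

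Of the 86 genes tested, the sign turned in these cases. Without PQQ-H 1 and PQQ-H 2, the log2FC was -0.14 for Drd1, -0.24 for Adora2a, 0.74 for C1ql2, 1.17 for Lct, 0.54 for Prox1 and -0.19 for Ucp2. With the striatal score it was 0.24 for C1ql2, 0.64 for Lct, 0.33 for Prox1 and -0.15 for Ucp2. With the choroid plexus score it was 1.17 for Slc13a4, 0.15 for Foxj1, 0.10 for Fmod, 0.12 for Srebf2, 0.24 for Irf7, 1.0 for Cd74, 1.69 for Sfrp5, 0.042 for Optn, 0.10 for Slc7a11 and 0.14 for Ntng1. Slc13a4 is itself a part of this score. Relative to the PQQ-L mean the score was at most -0.57 in PQQ-H and at least -0.26 in PQQ-L. The groups did not overlap in it, so this fit cannot tell the dose from the score. Array quality weights gave 0.059 for Prox1. Without PQQ-H 2 Ucp2 was at -0.12, and without PQQ-H 3 Sfrp5 was at 0.17. Leaving out 1 library moved Cd74 between -0.70 (without PQQ-H 2) and 0.20 (without PQQ-H 3). With 4 against 5 libraries the median 95% interval covers 0.28 in each direction, so that smaller differences were for many genes not detectable here. This interval is not adjusted for the number of genes, and it is no limit above which a gene was called. Ttr, with a log2FC of -1.86, had an adjusted p of 0.324 in limma.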

Other observations

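Blood cell genes, hemoglobins among them, were higher for 7 of 7 tested members with a median log2FC of 0.62, and 0 were at an unadjusted p below 0.05. The median was 0.22 without PQQ-H 2, 0.79 without PQQ-H 1 and 0.12 without both. The summed FPKM of the list was 603 in PQQ-H 2, 125 to 152 in the other PQQ-H libraries and 57.4 to 254 in PQQ-L. MHC class I genes were lower for 6 of 10 members with a median of -0.03, and of -0.26 without PQQ-H 1 and PQQ-H 2, where 4 were lower at an unadjusted p below 0.05 (8.6% of all genes). Heat shock and unfolded protein response genes had a median of -0.05, senescence and p53 genes of -0.04 and glycolysis of 0.02, and none of these 3 lists had a member at an unadjusted p below 0.05 with all libraries. The medians were -0.002, -0.04 and 0.05 without PQQ-H 1 and PQQ-H 2, where 1, 2 and 0 members were lower at that level (8.6% of all genes). The glycolytic median was -0.07 in TPM.

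The thalamic list had no common direction, with 6 of 10 tested genes higher and a median log2FC of 0.03, or 0.10 without PQQ-H 1 and PQQ-H 2. Tnnt1 was higher with a log2FC of 0.78 ± 0.24 (SE) and Ntng1 lower with -1.18 ± 0.44, each with overlapping libraries. They were the members at an unadjusted p below 0.05 in limma (5% of all genes higher, 8.67% lower). Without PQQ-H 1 and PQQ-H 2 their log2FC were 0.97 and -0.71.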
